A study of Sus scrofa with 27 samples.

Results

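The genes described here encode the main parts of the basal lamina: the collagen IV chains COL4A1 and COL4A2, the laminin chains LAMA1, LAMB1, LAMB2 and LAMC1, the nidogens NID1 and NID2, the heparan sulfate proteoglycan perlecan (HSPG2) and type XVIII collagen (COL18A1). They were listed by symbol as components of the basal lamina. All 10 were among the 35670 identifiers of the deposited count files, and all 10 passed the limit of a mean count of 5, together with 11384 named genes in all. A basal lamina is built from a network of laminin trimers and a network of collagen IV, which nidogens and perlecan link. In the ovarian follicle this sheet separates the granulosa cells from the theca and its blood vessels, and in cattle the same proteins have also been described as aggregates between granulosa cells, the focal intra-epithelial matrix or focimatrix, which appears as the follicle matures. Endothelial cells lay down the same proteins under vessels, so CDH5 (VE-cadherin, an endothelial junction protein) and CYP11A1 (the side-chain cleavage enzyme that starts steroid synthesis, whose mRNA rises as granulosa cells mature and is also present in theca cells) were taken as reference genes.

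The libraries were made from mural granulosa cells, the layer along the inside of the follicle wall, cut out by laser capture microdissection from 1 follicle per sow, the largest without signs of atresia. The sows were wild-type Large White times Norwegian Landrace crosses in their first lactation. In the last 2 weeks of lactation 13 full-fed (FF) sows received 6.5 kg of feed per day and 14 feed-restricted (RES) sows 3.25 kg per day, after which the diets were the same, and tissue was taken on day 2 after weaning. The sows were most of those of each diet in a larger trial, picked by their weight loss, highest for RES and lowest for FF. The picking widened the contrast in weight loss between the groups. FF sow 9 was left out by the study.

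Total counts per library lay between 12299220 and 16021200 for FF, with a median of 13490513, and between 12942198 and 18120922 for RES, with a median of 15232600, and the members had 19 to 6207 counts per library. Levels are given as scaled counts, that is, counts divided by the size factor of the library. RNA of other cells was present in every library: the summed scaled counts of 15 endothelial markers were 1661 to 3006 for FF, with a median of 2306, and 1207 to 3422 for RES, with a median of 1655, those of 14 theca and stroma markers were 15580 to 44280 in FF and 13360 to 41580 in RES, and those of 13 granulosa markers were 111000 to 190700 and 93010 to 241800. In such bulk samples, fewer cells of a type and less RNA per cell cannot be told apart. RES sow 7 stood apart from the other RES sows, with 751.8 scaled counts of CYP11A1 (next highest 471.6) and 195.7 of CDH5 (next highest 124.6). FF sow 10 stood apart from the other FF sows in HSPG2, with 5373 scaled counts (next highest FF sow 3361, highest RES sow 4333), and was also the highest of all sows in LAMB2 (806.6, next highest FF sow 594.6) and COL4A2 (1349, next highest 1063). FF sow 10 is also listed with the lowest RNA integrity number (RIN), although it is uncertain whether that entry belongs to FF sow 10 or to the omitted FF sow 9.

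COL4A1 and COL4A2 lie head to head on chromosome 11 and are read in opposite directions. In the RefSeq annotation of Sscrofa11.1, COL4A1 (chr11:76858332-76997409, minus strand) starts 133 bases before one of 2 transcript models of COL4A2 (chr11:76996885-77161617, plus strand). The other model of COL4A2 starts inside COL4A1, so that the gene records overlap by 525 bases, although none of the bases printed here is exonic. The stretch between the starts is shown because these genes had the closest profiles among the members. It is chr11:76997410-76997542, plus strand of Sscrofa11.1, with the matches to the GC box GGGCGG and the CCAAT box CCAAT, searched on both strands, in capitals.
COL4A1-COL4A2 gap: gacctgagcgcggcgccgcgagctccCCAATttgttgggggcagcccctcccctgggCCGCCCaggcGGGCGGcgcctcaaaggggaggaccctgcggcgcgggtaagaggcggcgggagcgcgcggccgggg

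This stretch held 1 GC box on each strand, 1 CCAAT box on the plus strand and no TATAAA. Of the 19557 protein-coding genes with a complete window of 133 bases before their start, 39.1% held a GC box, 21.5% a CCAAT box and 5.3% a TATAAA on either strand. Its GC content was 78.9%, against a median of 60.9% over those starts. In windows of 250 bases before the start, 6 of the 10 members held a GC box, against 45.9% of 19556 genes, and none held TATAAA, which 9.8% of genes did. The window of HSPG2 had the most, 9 matches to GGGCGG counted with overlaps, a number that 0.5% of genes reached. It is printed for that density (chr6:79958284-79958533, minus strand).
HSPG2 before start: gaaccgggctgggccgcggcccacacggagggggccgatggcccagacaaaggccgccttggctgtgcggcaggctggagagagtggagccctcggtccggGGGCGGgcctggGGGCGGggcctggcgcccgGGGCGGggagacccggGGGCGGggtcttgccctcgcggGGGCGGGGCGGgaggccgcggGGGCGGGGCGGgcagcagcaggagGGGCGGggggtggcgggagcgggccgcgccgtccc

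These matches are a description of the letters only, and the other positions are chr6:100332843-100468457 for LAMA1, chr9:107670120-107747242 for LAMB1, chr13:31738282-31750623 for LAMB2, chr9:124283668-124405967 for LAMC1, chr14:55239327-55346948 for NID1, chr1:181699098-181773084 for NID2, chr6:79849691-79958283 for HSPG2 and chr13:207907835-207984082 for COL18A1.

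Levels per kilobase use the exon lengths of the RefSeq models, while the reads were counted on Ensembl exons, whose lengths were not compared. Per kilobase of exon, the laminin gamma chain LAMC1 and COL4A1 had the highest levels of the members. LAMC1 had 512 ± 93.1 scaled counts per kilobase over the 13 FF sows (± is SD) and 597 ± 77.2 over the 14 RES sows, and COL4A1 had 492 ± 108 in FF and 396 ± 114 in RES, so that in FF they lay within each other's spread. LAMA1 followed with 275 ± 96.2 in FF and 228 ± 47.9 in RES, then HSPG2 with 158 ± 70.6 and 145 ± 56.8, and COL4A2 with 126 ± 39.0 and 94.7 ± 38.6. LAMB2, NID2 and LAMB1 lay close together in FF, at 94.0 ± 19.9, 84.6 ± 14.5 and 82.8 ± 20.5, within each other's spread. NID1 had 41.6 ± 11.7 in FF and 32.7 ± 12.3 in RES. COL18A1 was lowest, at 6.61 ± 2.77 and 6.11 ± 1.89. The partner chains thus differed in counts per kilobase of RefSeq exon: COL4A1 exceeded COL4A2, and LAMC1 exceeded both beta chains. Whether the Ensembl lengths would change this was not tested.

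**Figure D1:**
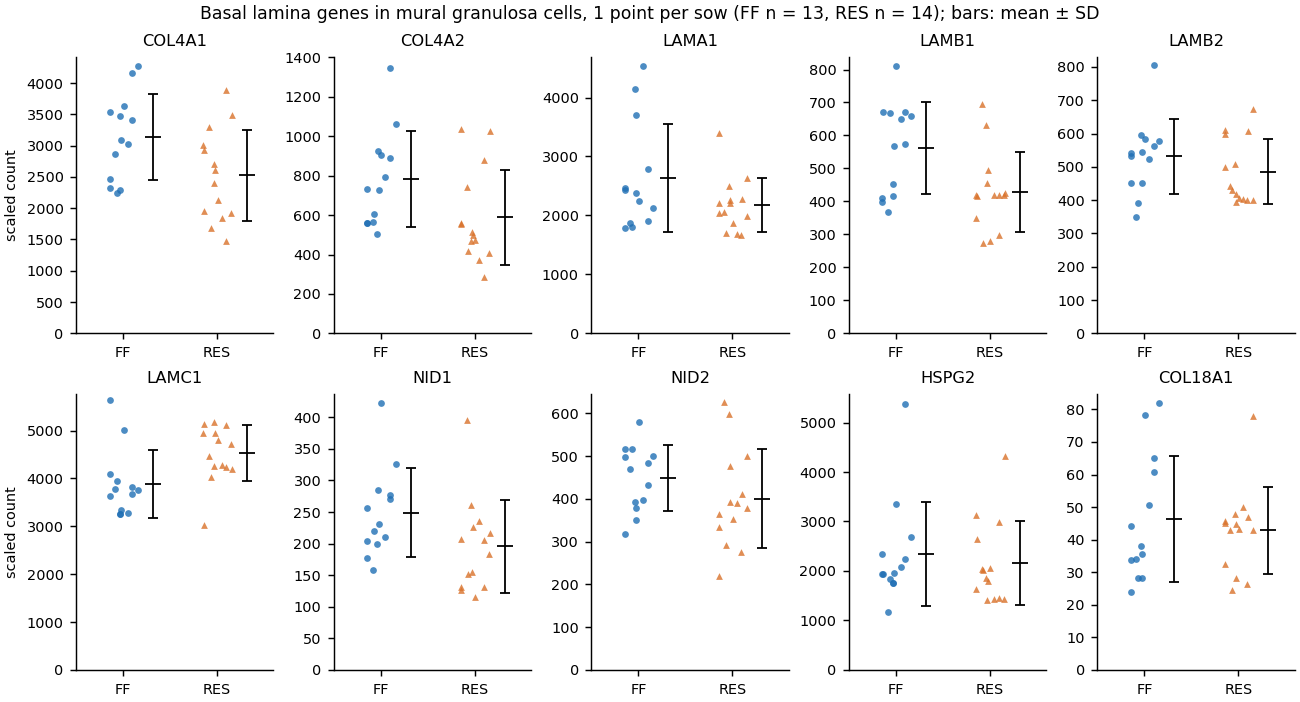
Scaled counts (vertical axes, from 0) of the 10 basal lamina genes in each sow, FF as circles and RES as triangles, with mean ± SD beside them. The groups overlap for all 10 genes, the RES sows lie lower on average for 9, and LAMC1 is the exception, with 13 of 14 RES sows above the FF median of 3753.

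The comparison of RES with FF asks how the matrix genes of these cells differed after restricted feeding. The study reports that the largest healthy follicles were smaller on average in RES than in FF sows. The part of follicle size in these differences was not tested. By edgeR's quasi-likelihood test, 9 of the 10 members had a lower fitted level in RES and 1 of 10, LAMB1, was called at an adjusted p under 0.05, where 14.1% of all 11384 genes tested were called, 8.29% higher and 5.85% lower, and DESeq2 also called 1 member, beside 18.5% of genes. The 9 were lower under DESeq2 as well, and 8 were without FF sow 10. The members' median log2 fold change was -0.26, against -0.02 over all genes tested. At an unadjusted p under 0.05 there were 5 members by edgeR (COL4A1, COL4A2, LAMA1, LAMB1 and NID1), each lower, beside 30.0% of all genes in either direction and 14.3% lower. By DESeq2 there were also 5, with LAMC1, higher in RES (0.22, Wald p = 0.0145), in place of LAMA1 (Wald p = 0.062). LAMC1 was likewise higher at an unadjusted p under 0.05 by edgeR with DESeq2's size factors, without a count filter, over all identifiers and with sow number as a block. In simulated libraries of this design, 52% of 100 genes given a log2 fold change of 0.5 were called and 93% of 100 given 1, among 11184 unchanged genes. Fewer genes changed there than the 1610 called here, which makes the adjusted threshold stricter. These shares therefore do not give the power of the real comparison.

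**Figure D2:**
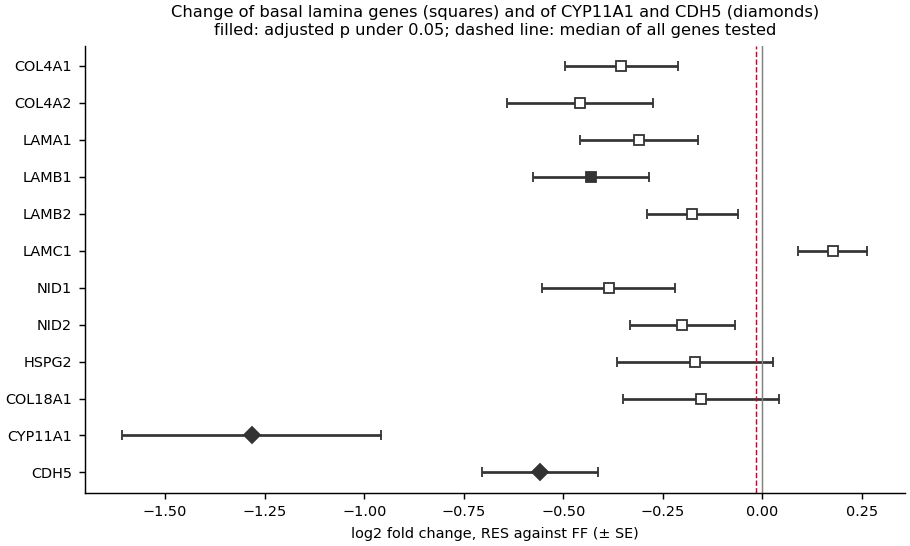
Log2 fold change of RES against FF (horizontal axis, ± SE from edgeR) of the 10 members as squares and of CYP11A1 and CDH5 as diamonds, filled where the adjusted p is under 0.05. LAMB1 at -0.43 and both reference genes are filled, LAMC1 at 0.18 is the sole member to the right of 0, and the dashed line marks the median of all genes, -0.02.

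The collagen IV chains form a heterotrimer of COL4A1 and COL4A2 chains, the net to which the other components attach. COL4A1 ranged from 2235 to 4275 scaled counts among FF sows around a median of 3085, and from 1478 to 3888 among RES sows around a median of 2504. COL4A2 ranged from 505 to 1349 among FF sows around a median of 734, and from 288 to 1038 among RES sows around a median of 505. The groups overlapped for both genes, with 11 of 14 RES sows below the FF median for COL4A1 and 10 of 14 for COL4A2. The log2 fold change of COL4A1 was -0.35 ± 0.14 (SE, edgeR adjusted p = 0.0883) and that of COL4A2 -0.46 ± 0.18 (adjusted p = 0.0889), so neither was called. Both were called with the quality group of the reads as a covariate (edgeR adjusted p = 0.0413 and 0.0484), and COL4A1 also without RES sow 7 (adjusted p = 0.0467) or RES sow 10 (adjusted p = 0.0353), and COL4A2 without RES sow 5 (adjusted p = 0.0373).

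Among the laminin chains, which join as trimers of an alpha, a beta and a gamma chain, the beta chain LAMB1 ranged from 369 to 811 scaled counts among FF sows around a median of 574, and from 273 to 695 among RES sows around a median of 419. It fell in the RES sows by edgeR (log2 fold change -0.43 ± 0.15, SE, adjusted p = 0.0448), and 12 of 14 RES sows lay below the FF median, although 10 of 14 lay within the FF range. The FF sows themselves fell into values of 369 to 454 in 5 sows and 568 to 811 in 8. This split went with the quality group of the reads: the 5 low sows were all in the upper group. The 8 high sows were all FF sows of the lower group, and FF sows 6 and 11 of the upper. The call was near the threshold: it was lost when any of 15 of the 27 libraries was left out (FF sows 1, 5, 6, 8, 11, 12 and 13 and RES sows 1, 3, 5, 6, 9, 11, 12 and 13), with edgeR adjusted p-values of 0.00916 (without RES sow 7) to 0.0795 (without FF sow 11) and log2 fold changes of -0.51 to -0.38. The call was kept by DESeq2 (-0.39, adjusted p = 0.039), by edgeR with its own expression filter (adjusted p = 0.0383) and with the quality group as a covariate (adjusted p = 0.0165). It was lost with the size factors of DESeq2 in edgeR (adjusted p = 0.0532), without a count filter (adjusted p = 0.0562), over all identifiers (adjusted p = 0.0597), with RIN as a covariate (adjusted p = 0.0578) and, with fold changes of like size, in the upper (-0.51, adjusted p = 0.0756) and lower (-0.39, adjusted p = 0.325) quality group. With CDH5 or CYP11A1 as a covariate it was lost with smaller fold changes (-0.07 and -0.17). LAMB2, the other beta chain, ranged from 349 to 807 scaled counts among FF sows around a median of 542, and from 393 to 675 among RES sows around a median of 436, and all 14 RES sows lay within the FF range (log2 fold change -0.18 ± 0.11, edgeR adjusted p = 0.305, and -0.10 without FF sow 10).

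The gamma chain LAMC1, which these trimers share, ranged from 3247 to 5639 scaled counts among FF sows around a median of 3753, and from 3024 to 5173 among RES sows around a median of 4593. It was the one member with a higher fitted level in RES, 0.18 ± 0.09 on the log2 scale (edgeR adjusted p = 0.169), and was not called. The FF median was exceeded by 13 of 14 RES sows, and RES sow 4 was below all FF sows. Without FF sow 13, which had the highest level, LAMC1 was called at 0.23 (edgeR adjusted p = 0.0477). The alpha chain LAMA1 ranged from 1786 to 4542 scaled counts among FF sows around a median of 2373, and from 1665 to 3400 among RES sows around a median of 2128, with 3 FF sows (6, 8 and 14) above all RES sows. Its log2 fold change was -0.31 ± 0.15 (SE, edgeR adjusted p = 0.154).

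The nidogens bind laminin gamma chains and collagen IV. NID1 ranged from 158 to 422 scaled counts among FF sows around a median of 231, and from 116 to 395 among RES sows around a median of 195, with a log2 fold change of -0.39 ± 0.17 (SE, edgeR adjusted p = 0.117). Of the RES sows 11 of 14 were below the FF median, and the highest RES value, 395, was that of RES sow 7, without which the fold change was -0.51 (adjusted p = 0.0134). NID2 ranged from 319 to 579 scaled counts among FF sows around a median of 469, and from 220 to 626 among RES sows around a median of 385, and its log2 fold change was -0.20 ± 0.13 (SE, edgeR adjusted p = 0.311).

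HSPG2 ranged from 1165 to 5373 scaled counts among FF sows around a median of 1957, and from 1422 to 4333 among RES sows around a median of 1937, so the medians were nearly the same and all 14 RES sows lay within the FF range. Its log2 fold change of -0.17 ± 0.20 (SE, edgeR adjusted p = 0.597) became 0.01 without FF sow 10, -0.29 without RES sow 5 and -0.07 with RIN as a covariate. COL18A1, whose protein carries heparan sulfate and releases endostatin, ranged from 24.0 to 81.9 scaled counts among FF sows around a median of 38.0, and from 24.5 to 78.1 among RES sows around a median of 44.0. The fitted log2 fold change was -0.15 ± 0.20 (edgeR adjusted p = 0.633), while 10 of 14 RES values exceeded the FF median, so mean and median pointed in different directions. Its fold change was -0.06 without FF sow 5, -0.07 without FF sow 11 and -0.25 without RES sow 5. It had the fewest counts of the members.

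Both reference genes were lower in RES, by edgeR -1.28 ± 0.33 (SE, adjusted p = 0.0092) for CYP11A1 and -0.56 ± 0.15 (adjusted p = 0.0113) for CDH5, each with 13 of 14 RES sows below the FF median. Within the quality groups CYP11A1 was not called although its fold change was about as large (-1.36, edgeR adjusted p = 0.0604 for upper, and -1.25, adjusted p = 0.169 for lower), and CDH5 was not in the lower group (-0.39, adjusted p = 0.486). CYP11A1 ranged from 194 to 1331 scaled counts among FF sows around a median of 485, and from 78.3 to 752 among RES sows around a median of 189. CDH5 ranged from 101 to 195 among FF sows around a median of 132, and from 51.6 to 196 among RES sows around a median of 89.7. With the log2 level of CDH5 as a covariate, the members' log2 fold changes lay between -0.22 and 0.25 and 0 of 10 were called, but 0 of all 11383 genes were called in that fit either, and 0 members reached an unadjusted p under 0.05. With CYP11A1 as the covariate, 22 genes (0.193%) were called and 0 members, with LAMA1 at -0.47 and LAMC1 at 0.27 reaching an unadjusted p of 0.0138 and 0.0204 by edgeR. Both reference genes moved with the diet, so in these fits their share and that of the diet cannot be told apart.

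Libraries were also split into an upper and a lower group by the sequencing quality of their reads (7 FF and 7 RES sows, and 6 FF and 7 RES sows). The 9 members that were lower over all sows were lower in each group as well, with a median log2 fold change over the 10 members of -0.44 in the upper and -0.18 in the lower group. In the upper group NID1 was called (-0.64, edgeR adjusted p = 0.0463), with 17.8% of all genes called, and in the lower group 0 members were, with 1 at an unadjusted p under 0.05 and 1 of 11384 genes called (0.00878%).

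Within a library, the ratio of partner chains does not depend on how the library is scaled. In all, 4 ratios were compared by two-sided permutation tests. The log2 ratio of COL4A1 to COL4A2 was 2.03 ± 0.19 for FF (± is SD over sows) and 2.15 ± 0.27 for RES, equal to 4.08 and 4.43 counts of COL4A1 per count of COL4A2, a difference of 0.12 (permutation p = 0.2). The LAMB1 to LAMB2 ratio was 0.07 ± 0.39 in FF and -0.20 ± 0.45 in RES (difference -0.27, permutation p = 0.103). The NID1 to NID2 ratio was -0.88 ± 0.37 in FF and -1.06 ± 0.31 in RES (difference -0.18, permutation p = 0.173). None of these differences had a permutation p under 0.05 over all 27 libraries. The lowest permutation p without a single sow, not adjusted over the ratios or sows, was 0.0464 for the ratio COL4A1 to COL4A2 (0.17 without RES sow 3) and 0.0368 for the ratio LAMB1 to LAMB2 (-0.34 without RES sow 7).

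The ratio LAMA1 to LAMC1 moved most of the 4. On the log2 scale it was -0.61 ± 0.59 for FF (± is SD over sows) and -1.07 ± 0.40 for RES, a difference of -0.45 with a permutation p of 0.0274 and an adjusted p over the 4 ratios of 0.11. Among FF sows it ran from -1.22 to 0.47, with a median of -0.82, and among RES sows from -1.36 to 0.17, with a median of -1.20, and 12 of 14 RES sows lay below the FF median. The permutation p was above 0.05 within the quality groups (-0.57 in the upper, exact permutation p = 0.115, and -0.32 in the lower, exact permutation p = 0.16) and without FF sow 6, 8 or 14, the sows of high LAMA1 (permutation p = 0.0546, 0.0521 and 0.054).

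**Figure D3:**
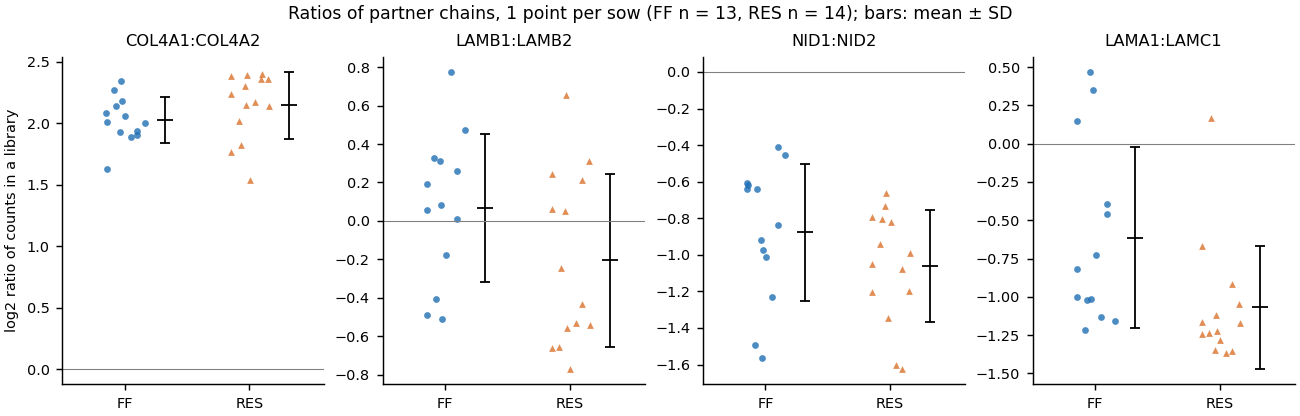
Log2 ratio of counts of 4 pairs of chains in each sow (vertical axes), FF as circles and RES as triangles, with mean ± SD; the grey line marks equal counts. COL4A1 exceeds COL4A2 in every sow, with ratios from 1.54 to 2.40, and LAMA1 to LAMC1 is lower in most RES sows, with RES sow 4 as the highest RES value at 0.17.

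Some of the members also varied together from sow to sow. After centring log2 CPM (counts scaled to a common depth) within each diet group, COL4A2 had the highest correlation with COL4A1 of all 11383 other genes (r = 0.89 over 27 libraries), and its slope on COL4A1 with diet in the fit was 1.15 ± 0.12 (SE, limma adjusted p = 1.594e-06). Within FF the Pearson r on scaled counts was 0.90 (permutation p = 4e-05, n = 13; rho 0.88) and within RES 0.84 (permutation p = 0.00012, n = 14; rho 0.91). Without the 2 sows farthest from the median it was 0.88 and 0.92, and within the quality groups 0.79 to 0.96. Besides COL4A2, 4 more members followed COL4A1 by limma (HSPG2, LAMB2, COL18A1 and LAMB1, adjusted p = 0.0111 to 0.0453), where 3.24% of genes had a positive slope that was called. For LAMB1, r with COL4A1 was 0.70 in FF and 0.41 in RES in the upper quality group, but -0.20 and -0.13 in the lower. Without the 2 farthest sows, r was 0.57 in FF and 0.16 in RES for COL18A1, 0.44 and 0.73 for HSPG2, and 0.43 and 0.64 for LAMB2.

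LAMB2 ranked 5th among all genes in its correlation with HSPG2, with r = 0.87 and a slope of 0.50 ± 0.06 (SE, limma adjusted p = 2.197e-05). The r on scaled counts was 0.87 in FF (permutation p = 0.00015; rho 0.63) and 0.89 in RES (permutation p = 0.0001; rho 0.85), and without the 2 farthest sows 0.70 and 0.83. COL4A2, COL18A1 and COL4A1 also followed HSPG2 (adjusted p = 0.000123 to 0.0137), so that 4 of 9 did, beside 11.8% of genes with a called positive slope. For COL18A1 in RES, r with HSPG2 was 0.60 but rho 0.25, and r was 0.10 without the 2 farthest sows. In FF that r was 0.58, and 0.60 without the 2 farthest. NID1 was followed by LAMB1 (r = 0.67, limma adjusted p = 0.0213) and NID2 (r = 0.66, adjusted p = 0.0275), 2 of 9 beside 1.11%. In RES, r of NID1 on scaled counts was 0.82 with LAMB1 and 0.81 with NID2, and 0.61 and 0.60 without the 2 farthest sows. In FF it was 0.56 and 0.46, and 0.14 and 0.44 without the 2 farthest. Within the lower quality group of FF it was -0.10 and 0.03. The reads were counted without regard to strand. COL4A1 and COL4A2 share 0 exon bases in the RefSeq models, while the Ensembl exons used for counting were not analysed here. Whether shared reads enter the r between them or the ratio COL4A1 to COL4A2 was not tested. These ranks and slopes describe libraries that share depth and cell content, and the genes are not independent replicates.

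LAMA1 and LAMC1 had the lowest correlations with the mean of the other members over both diets, 0.12 and 0.30, where the other members had 0.53 to 0.83, and r = -0.31 with each other. Within the diets, LAMA1 had -0.12 in FF and 0.44 in RES, and LAMC1 0.23 and 0.37. Between LAMA1 and LAMC1, r on scaled counts was -0.39 in FF, and -0.71 without the 2 farthest sows. In RES that r was -0.40 with rho 0.11, and it turned to 0.28 without the 2 farthest sows and reached 0.39 without 1 sow. Some of their pairs with other members were closer. In RES, LAMA1 had rho 0.61 with each of COL4A1, COL4A2 and LAMB1, although r was 0.27 to 0.33. In FF, LAMC1 had r = 0.67 with NID2 (permutation p = 0.00858, rho 0.79). Over the 45 pairs of members, r on scaled counts was positive in 37 in FF (median 0.37) and in 42 in RES (median 0.33).

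**Figure D4:**
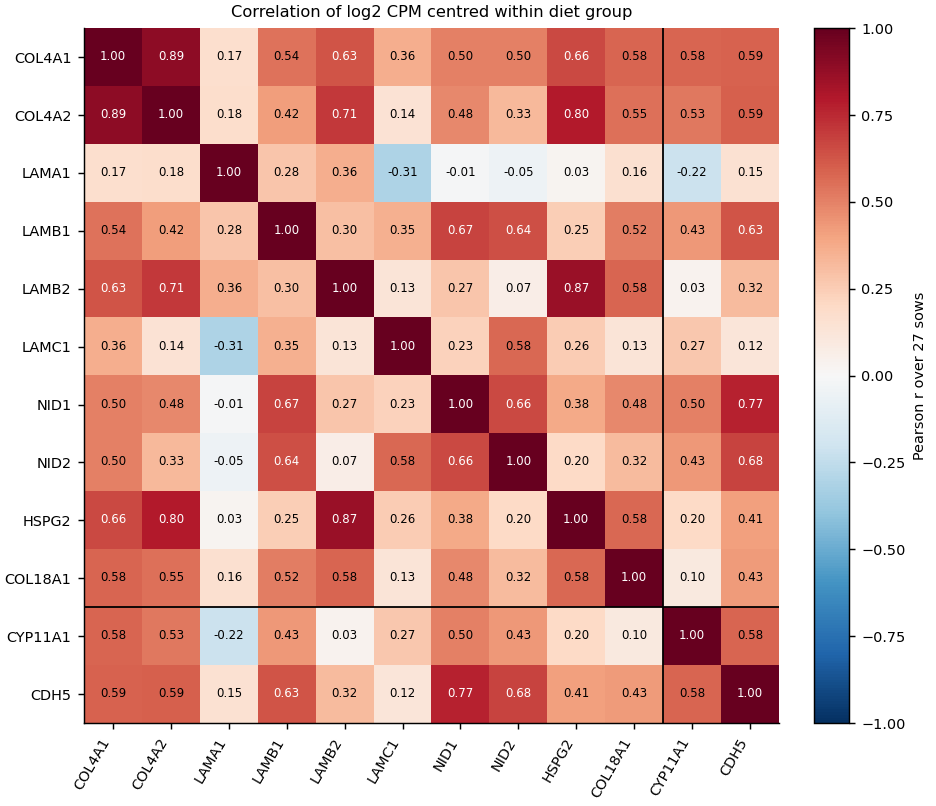
Pearson r of log2 CPM, centred within diet group, between the 10 members and the 2 reference genes over 27 sows (both axes list genes, colour and printed value give r from -1 to 1). COL4A1 with COL4A2 (0.89) and LAMB2 with HSPG2 (0.87) are the highest pairs, NID1 with CDH5 reaches 0.77, and the LAMA1 row stays between -0.31 and 0.36.

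The relation to CDH5 and CYP11A1 within each diet group asks whether the members move with either gene. CDH5 was taken for vessel RNA and CYP11A1 for maturation of the granulosa cells, although theca cells hold CYP11A1 mRNA too. In all, 40 correlations of members were computed and 8 had a permutation p under 0.05. In RES these were 4 with CDH5, where 21.1% of all genes had one, and 3 with CYP11A1 (16.1%). In FF they were 1 with CDH5 (3.43%) and 0 with CYP11A1 (8.14%). In RES, 10 of 10 correlations with CDH5 were positive (median r 0.39, against -0.03 over all genes) and 9 of 10 with CYP11A1 (median 0.35, against -0.04). In FF, 9 of 10 were positive with CDH5 (median 0.37, against -0.02) and 6 of 10 with CYP11A1 (median 0.11, against -0.01). The reference genes themselves correlated in RES (r = 0.84, permutation p = 0.00336, rho 0.70), with 0.49 without RES sow 7 (permutation p = 0.0898) and 0.41 without the 2 farthest sows, but 0.85 within the upper quality group, which does not hold RES sow 7 (exact permutation p = 0.0131, n = 7). In FF r was 0.19 (permutation p = 0.524).

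NID1 had the highest correlation with CDH5 of the members in RES, where r was 0.93 (permutation p = 5e-05) and rho 0.88 (permutation p = 0.00014), and without the 2 farthest sows r was 0.81 (permutation p = 0.00171). Within the quality groups it was 0.72 (exact permutation p = 0.0671, n = 7) and 0.96 (exact permutation p = 0.00298, n = 7). NID2 had r = 0.81 (permutation p = 0.00018), rho 0.78, and 0.72 without the 2 farthest sows. In FF the values were 0.48 for NID1 (permutation p = 0.1) and 0.27 for NID2 (permutation p = 0.376).

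LAMB1 had r = 0.77 with CDH5 in RES (permutation p = 0.00168) and rho 0.49, falling to 0.48 without the 2 farthest sows, so this relation rested on those sows. Without RES sow 7 alone it was 0.57 (permutation p = 0.0422). COL4A1 had r = 0.59 (permutation p = 0.0197), rho 0.63, and 0.53 without the 2 farthest (permutation p = 0.078), and its permutation p was 0.0612 without RES sow 1. In FF the only member with a permutation p under 0.05 was COL18A1 (r = 0.57, permutation p = 0.0408, rho 0.48), which fell to 0.31 without the 2 farthest sows and lost its permutation p under 0.05 without any of FF sows 2, 3, 5, 7, 8, 10, 13 and 14. LAMA1 had the lowest value in RES, r = 0.04 (permutation p = 0.876), and r = 0.05 in FF.

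By limma slopes over all genes, 4 members were called on CDH5 in RES, where 8.91% of genes were called and 3.72% had a positive slope that was called. Their slopes, log2 CPM per log2 CPM of CDH5, were 0.97 ± 0.16 for NID1 (SE, limma adjusted p = 0.00257), 0.76 ± 0.16 for NID2 (adjusted p = 0.00719), 0.67 ± 0.17 for LAMB1 (adjusted p = 0.0197) and 0.67 ± 0.18 for COL4A1 (adjusted p = 0.0267). COL4A2 had 0.78 ± 0.24 (adjusted p = 0.0501). Without RES sow 7 no slope on CDH5 was called among the members, where 2 of 11383 genes (0.0176%) were called, and without RES sow 1 there were 2 (NID1 and NID2), where 4.59% of genes were called. In FF 0 of 10 members were called and 0 of all genes, while 2 members (COL4A2 and NID1) and 4.40% of all genes had an unadjusted p under 0.05.

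On CYP11A1 in RES, NID1 was called (slope 0.40 ± 0.11, limma adjusted p = 0.0406), with 3.91% of genes called and 1.46% with a positive slope. NID1 had r = 0.78 with CYP11A1 (permutation p = 0.00701, rho 0.56), which became 0.39 without RES sow 7 and 0.44 without the 2 farthest sows, so over all RES sows it rested on those. In the upper quality group, without RES sow 7, it was 0.69 (exact permutation p = 0.0655, n = 7). COL4A1 had r = 0.62 (permutation p = 0.0105, rho 0.58), 0.70 without RES sow 7 and 0.46 without the 2 farthest (permutation p = 0.13). NID2 had r = 0.54 (permutation p = 0.0478), and 0.15 without RES sow 7. Its permutation p was also above 0.05 without RES sow 1, 4, 6, 8, 9, 11, 12 or 13. The slope of NID1 on CYP11A1 was not called without RES sow 1, 4, 7, 9, 10 or 11, where 0.29% (without RES sow 7) to 3.5% of all genes were called, and COL4A1 was called beside it without RES sow 5, 6 or 12, where 3.89% to 4.74% were. In FF 0 members were called, where 0.184% of genes were and 0.105% with a positive slope, and 0 had an unadjusted p under 0.05, beside 9.22% of all genes.

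In FF the relation of COL4A1 with CYP11A1 depended on which sows were used. The r was 0.29 over 13 sows (permutation p = 0.337, rho 0.40) and 0.82 without the 2 sows of highest CYP11A1 (sows 2 and 12; permutation p = 0.00238). In the upper quality group r was 0.74 (exact permutation p = 0.0212, n = 7) and in the lower -0.56 (exact permutation p = 0.26, n = 6), so the relation did not hold within both groups. LAMB1 likewise had r = 0.25 (permutation p = 0.426) over 13 FF sows and 0.65 (permutation p = 0.0308) without those 2.

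A difference between the diets in these slopes was not found. The RES minus FF difference of the slope of NID1 was 0.22 ± 0.36 on CDH5 and 0.31 ± 0.16 on CYP11A1, and that of NID2 on CDH5 0.48 ± 0.32 (limma adjusted p of 0.999 to 1 for the members). Of 11383 genes, 0 had a slope that differed at an adjusted p under 0.05, and of the members 0 did at an unadjusted p under 0.05, beside 1.96% of all genes on CDH5 and 3.50% on CYP11A1. With both reference genes in 1 fit in RES, the slopes on CDH5 stayed positive in 10 of 10 members, with 0 called and 4 at an unadjusted p under 0.05 (NID1 0.90 ± 0.26, NID2 0.91 ± 0.25, LAMB1 0.95 ± 0.27 and LAMA1 0.60 ± 0.26), where 12.5% of all genes had one. The slopes on CYP11A1 in that fit were positive in 5 of 10, with NID1 at 0.04 ± 0.13 and LAMA1, the 1 member at an unadjusted p under 0.05 (5.67% of all genes), at -0.28 ± 0.13. In that fit 1 of 11382 genes was called on CDH5 (0.00879%, a positive slope) and 0 on CYP11A1. The same fit in FF called 0 members, 0 also at an unadjusted p under 0.05 (7.62% of all genes on CYP11A1 and 3.43% on CDH5), with 0.0879% of genes called on CYP11A1 (0.0527% with a positive slope) and 0 on CDH5.

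**Figure D5:**
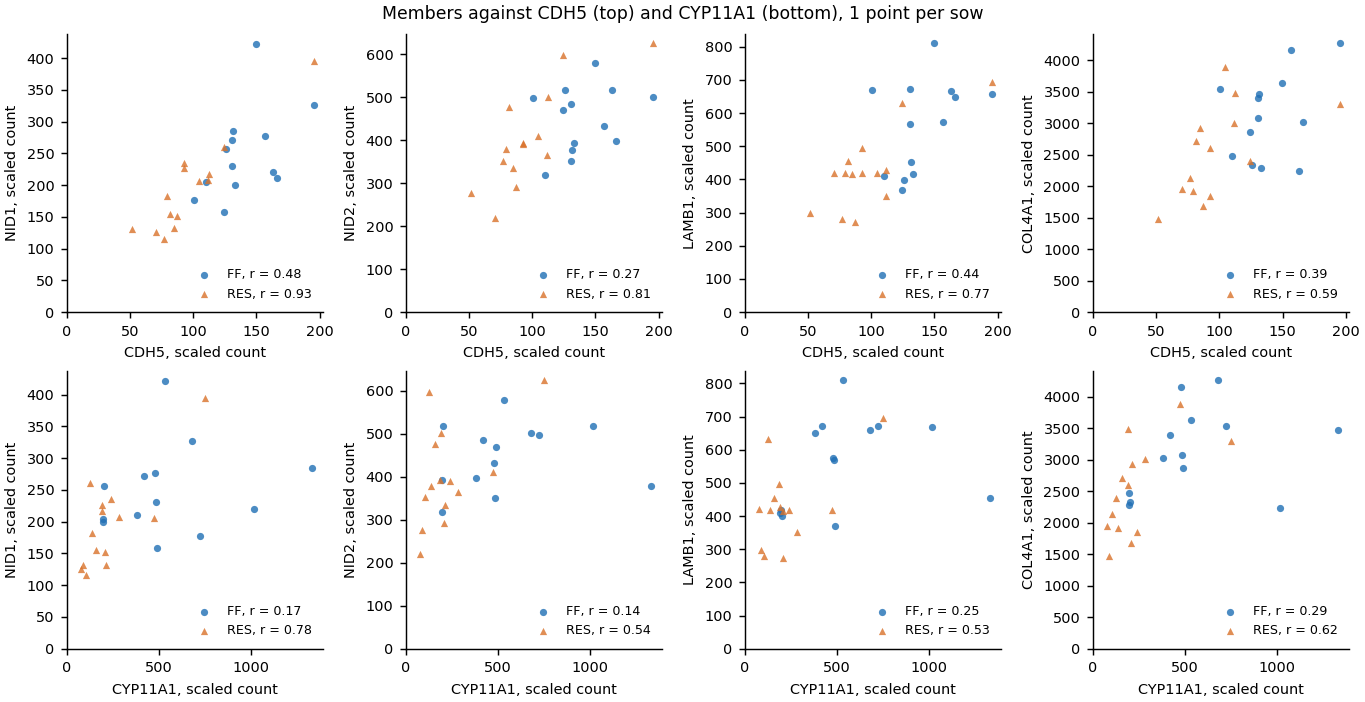
Scaled counts of NID1, NID2, LAMB1 and COL4A1 (vertical axes) against CDH5 (top row) and CYP11A1 (bottom row), 1 point per sow, FF as circles and RES as triangles, with Pearson r in each group. NID1 rises with CDH5 in RES (r = 0.93), and the rightmost RES triangle in each panel, with 195.7 scaled counts of CDH5 and 751.8 of CYP11A1, is RES sow 7. On the CYP11A1 axis 2 FF sows lie further right.

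Of 39 other basement membrane components 31 were tested, and by edgeR 3 fell and 0 rose (9.68% called, beside 14.1% of all genes), and DESeq2 called 5. COL4A5, a minor collagen IV chain, averaged 587 ± 97.9 scaled counts over FF sows and 456 ± 73.8 over RES sows (± is SD), with a change of -0.41 ± 0.10 on the log2 scale (SE, adjusted p = 0.00649) with 13 of 14 RES sows below the FF median. AGRN, the proteoglycan agrin, changed by -0.67 ± 0.22 (adjusted p = 0.0384), a call lost without any of FF sows 2, 5, 6, 7, 8, 10 and 14 and RES sows 1, 2, 4, 6, 9, 11 and 12 (adjusted p up to 0.0768). TINAGL1, under the mean of 20 scaled counts used for naming, is given to complete the count (-0.74 ± 0.24, adjusted p = 0.0396). The median of the 31 was -0.28. COL4A3 and COL4A4 had fitted values of 0.32 ± 0.24 and 0.44 ± 0.27 and were not called.

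Among 28 basement membrane receptors tested, 1 rose and 2 fell by edgeR (10.7% called, beside 14.1% of all genes), and DESeq2 called 3. ITGA6, the laminin-binding integrin alpha chain, had 3104 ± 1210 scaled counts in FF and 4996 ± 1849 in RES (log2 fold change 0.63 ± 0.19, adjusted p = 0.0261). BCAM, a laminin receptor, had -0.55 ± 0.16 (adjusted p = 0.0239), and ITGA2, a collagen-binding integrin chain, -0.37 ± 0.12 (adjusted p = 0.0379). The ITGA2 call was lost without any of FF sows 2, 5, 6, 8 and 13 and RES sows 3, 4, 5, 9, 11 and 13 (adjusted p up to 0.0749), and that of ITGA6 without RES sow 1 (adjusted p = 0.0559).

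Of 24 genes for folding and secretion of collagen and laminin, 4 rose and 1 fell by edgeR (20.8% called, beside 14.1% of all genes), and DESeq2 called 8. The endoplasmic reticulum chaperones HSPA5 (0.75 ± 0.16, adjusted p = 0.00315) and CALR (0.64 ± 0.13, adjusted p = 0.00251) and the disulfide isomerase PDIA3 (0.49 ± 0.14, adjusted p = 0.0223), which serve secreted proteins in general, rose, as did P4HA2, a collagen prolyl 4-hydroxylase subunit (0.59 ± 0.16, adjusted p = 0.0155). P3H2, a prolyl 3-hydroxylase that acts on collagen IV, fell from 41.7 ± 20.6 to 21.2 ± 15.0 scaled counts (-1.02 ± 0.30, adjusted p = 0.0226). Of 26 matrix proteases and inhibitors, 2 fell (7.69% called, 4 genes by DESeq2): MMP2, a gelatinase (-0.95 ± 0.30, adjusted p = 0.0311), and TIMP3, a matrix-bound inhibitor (-0.71 ± 0.19, adjusted p = 0.0136). The MMP2 call was lost without FF sow 2, 6 or 14 or RES sow 3, 6, 9, 11 or 12 (adjusted p up to 0.0544).

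Markers of other cells moved as well. Of 15 endothelial markers tested 5 fell and 0 rose by edgeR, or 33.3% beside 14.1% of all genes, and DESeq2 called 6. Those that fell were CDH5, EMCN (-0.78 ± 0.16), ROBO4 (-0.61 ± 0.18) and the low CLDN5 and ESAM, while PECAM1 had -0.12 ± 0.17 (edgeR adjusted p = 0.682). Of the 15, 2 had a higher fitted level in RES, ECSCR at 0.0044 and TIE1 at 0.40 ± 0.22 (adjusted p = 0.227, 11 of 14 RES sows above the FF median). The median of the 15 was -0.44. VWF, EGFL7, PLVAP and SOX17 were not among the genes tested. Of 12 pericyte and smooth muscle markers 2 fell (16.7%, and 2 were called by DESeq2), RGS5 (-0.77 ± 0.21, adjusted p = 0.0131) and PDGFRB (-0.61 ± 0.20, adjusted p = 0.0403). Of 14 theca and stroma markers 0 were called by edgeR (4 at an unadjusted p under 0.05, 1 by DESeq2), and of 7 immune markers 0 (5 at an unadjusted p under 0.05, 1 by DESeq2). The fitted level in RES was lower for 12 of the 14 (median -0.17) and for 7 of the 7 (median -0.82), beside 5996 of all 11384 genes. CYP17A1, the theca androgen enzyme, had -1.11 ± 0.39 (adjusted p = 0.0523). Of 13 granulosa markers 1 rose (7.69%, and 2 were called by DESeq2), HSD17B1 (0.56 ± 0.17, adjusted p = 0.027), and of 12 granulosa maturation genes 3 fell (25%, and 4 were called by DESeq2), CYP11A1, ANGPT1 (-0.89 ± 0.29, adjusted p = 0.0346) and IGFBP2 (-1.02 ± 0.22, adjusted p = 0.00333). Single sows removed the calls of PDGFRB (FF sows 1, 2, 5, 6, 10, 11 and 12 and RES sows 1, 2, 3, 6, 9, 11, 12 and 13, adjusted p up to 0.0707), ANGPT1 (FF sows 2, 6, 7, 12 and 14 and RES sows 1, 3, 6, 11 and 12, adjusted p up to 0.07), ROBO4 (FF sow 5, adjusted p = 0.0502) and HSD17B1 (RES sow 3, adjusted p = 0.0512). The part of these cell types in the members' values was not tested.

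The genes whose profile over the 27 libraries, centred within diet, was most like the mean of the members were SPTBN1 (r = 0.86), COL5A1 (0.85), CPXM1 (0.83), SPARC (0.81) and COL1A1 (0.81). CDH5 ranked 69th with 0.70, and CYP11A1 1267th with 0.43. None of the 5 was called between the diets by edgeR, with log2 fold changes of -0.49 to -0.15. SPARC was called by edgeR with the quality group as a covariate (-0.47, adjusted p = 0.0315), in the upper quality group (-0.82, adjusted p = 0.0109) and without RES sow 5 (-0.51, adjusted p = 0.0192) or RES sow 7 (-0.48, adjusted p = 0.0316).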

How the data were processed

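Mural granulosa cells of 13 FF and 14 RES sows were profiled by RNA-seq of total RNA after ribosomal depletion, with 1 library per sow. The authors aligned the reads to Sscrofa11.1 with HISAT2 2.2.1, kept uniquely mapped reads with SAMtools 1.16.1, removed PCR copies by their molecular tags with UMI-tools 1.1.4 and counted read pairs on exons of Ensembl genes with featureCounts 1.6.2, without a strand option although the kit keeps strand, so that genes overlapping on opposite strands can share counts. Raw, unnormalized gene counts were deposited for each library. Differences were tested with edgeR 4.0.16 (TMM, quasi-likelihood, R 4.3.3) over 11384 named genes with a mean count of at least 5 (38 small RNAs left out), Benjamini-Hochberg adjusted, at 0.05. Slopes were fitted with limma 3.58.1 on log2 CPM (prior count 2), and DESeq2 1.42.0 served as the alternative and for size factors. Correlations are on counts divided by these size factors, with 100000 permutations in Python 3.11.15 with NumPy 2.4.6, or all of them within quality groups. Figures were drawn with Matplotlib 3.10.9. Two-sided tests were used throughout.

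Quality groups were set at a gap in the base quality the study lists per library. The row of FF sow 10 in the lists of base quality and RIN may be that of FF sow 9. Symbols came from a table pairing 15623 of 35670 identifiers with names, positions and sequences from RefSeq's Sscrofa11.1. On simulated counts for RES against FF (11384 genes), edgeR recovered 93% of 100 genes with a log2 fold change of 1, 52% of 100 with 0.5, and called 7 unchanged genes. The members and lists were chosen with earlier results of these data known, and the fit with both reference genes and the slopes on COL4A1, HSPG2 and NID1 were added after seeing the data. Other genes were named where called in a list (at most 6 by size, mean of at least 20 scaled counts), or as the 5 most like the members.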

Additional observations from a re-analysis of the deposited data

How the results depend on the processing

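The count of members called between the diets, 1, was 0 when edgeR used the size factors of DESeq2, with no count filter, all identifiers tested, the replicate block, RIN, CDH5 or CYP11A1 as a covariate, and in the lower quality group, and 3 with the quality group as a covariate, where 15% of all genes were called; leaving out single sows gave 0 to 3, with 10.4% to 20.6% of all genes called and the most in both without RES sow 7. The sow numbers do not pair the groups (correlation of deviations over 13 pairs -0.24 to 0.31, median 0.01, with 1 over 0.1 and 0 best with their own number), and the replicate block moved the calls over all genes from 1610 to 1084. With CDH5 as a covariate the log2 fold change turned to 0.0323 for COL4A2, 0.11 for NID1, 0.14 for NID2, 0.25 for HSPG2, 0.24 for COL18A1, 0.076 for SPTBN1, 0.53 for COL5A1, 0.16 for CPXM1, 0.0844 for SPARC and 0.69 for COL1A1. With CYP11A1 it turned to 0.0094 for NID2, 0.0045 for HSPG2, 0.15 for COL5A1 and 0.27 for COL1A1. COL1A1 also turned with RIN (0.0116) and in the lower quality group (0.0265), and without FF sow 10 HSPG2 (0.0087), COL5A1 (0.10) and COL1A1 (0.14) did, whose lowest values without a single sow were -0.29, -0.27 and -0.37. Members following CDH5 in RES, 4, were 1 with the quality group as a covariate (2.28% of all genes called), 0 without the 2 farthest sows, within either quality group or with both reference genes in 1 fit (at most 1 gene of all called in each), and 0 to 5 without single sows (0.0176% to 12.4% of all genes). Those following CYP11A1 in RES, 1, were 0 in each of these and with DESeq2's size factors, and 0 to 2 without single sows (0.29% to 5.7% of all genes). The LAMA1 to LAMC1 difference of -0.45 lost its permutation p under 0.05 in the upper (-0.57) and lower (-0.32) quality group and with the replicate block (-0.44), and ran from -0.55 to -0.36 without single sows; the COL4A1 to COL4A2 difference ran from 0.0849 to 0.17 and that of LAMB1 to LAMB2 from -0.34 to -0.22. COL4A1 with CYP11A1 in FF was -0.56 in the lower quality group. LAMB1, the member called, kept its call in 3 of these settings and lost it in 9 (adjusted p = 0.123 with the replicate block). For the other named genes, calls were lost in 82 cases: none of those called over all sows was called in the lower quality group, and ITGA2 and PDGFRB lost their calls in 8 settings each. The causes were not tested. COL18A1 had the fewest counts of the members, 19 to 92 per library, but its SE (0.195) was close to that of HSPG2 (0.196), which had 1162 to 5103.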
